A study of Mus musculus with 5 samples.

Results

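This account follows 9 nuclear factors that set the layer identity of cortical projection neurons, namely Tbr1, Fezf2, Bcl11b, Tle4, Zfpm2, Cux1, Cux2, Bcl11a and Bhlhe22. They were chosen by gene symbol, and each had a single row among the 23234 genes of the authors' table, so that all 9 of 9 could be followed. The cells came from CD1 mouse embryos whose cortices received plasmid DNA by electroporation at embryonic day E12.5. GFP-expressing cells were sorted from them at E15.5. The Ptf1a misexpression group (3 samples) carried a construct encoding Ptf1a and GFP, and the GFP-only control group (2 samples) carried GFP without Ptf1a. Each sample pooled 3 to 6 brains, and the promoter that drove either construct is not given in the sources used here. Expression is in FPKM (fragments per kilobase of transcript and per unit of sequencing depth), which allows levels of different genes to be compared. The table holds 1 merged FPKM value per group, so no spread between samples can be shown.

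Projection neurons of the neocortex are born in sequence, the deep layers before the upper layers, and a small set of mutually repressing transcription factors gives each layer its axonal target. Fezf2 and its downstream factor Bcl11b specify neurons that project to the spinal cord and brainstem, while Tbr1 represses that programme in neurons that project to the thalamus. Cux1 and Cux2 shape the dendrites and spines of upper-layer neurons. Ptf1a, a basic helix-loop-helix factor, normally acts outside the cortex, in inhibitory neuron lineages of the spinal cord, cerebellum and retina and in the exocrine pancreas.

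Misexpression of Ptf1a was accompanied by lower transcript levels of most, but not all, of the layer factors. Of the 9 factors, 5 fell, 2 rose and 2 were not called. Rose and fell are used here for genes with a q-value under 0.05 in the authors' deposited table. The factors that fell were Bhlhe22, Tbr1, Bcl11b, Cux1 and Fezf2, in order of the size of the fold change. Those that rose were Tle4 and Bcl11a. By the same criterion 19.1% of the 11876 tested genes fell and 18.7% rose. The median log2 difference of the 9 factors was -0.35, computed as log2(FPKM + 0.1) in Ptf1a cells minus that in GFP-only cells, beside -0.0088 over all tested genes. In bulk RNA of sorted cells, fewer cells of a type and less RNA per cell cannot be told apart. Ptf1a itself stood at 38.9 FPKM in Ptf1a cells and 0.210 FPKM in GFP-only cells, where reads from the construct cannot be separated from those of the endogenous gene.

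**Figure D1:**
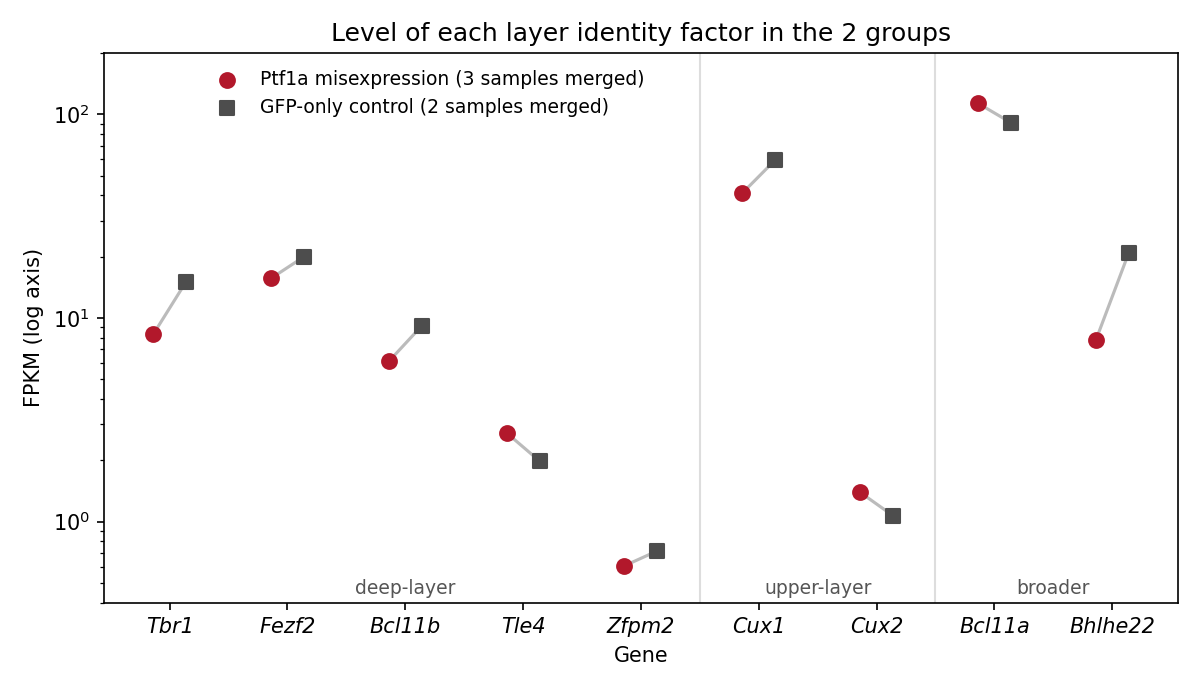
FPKM of each factor (log axis) in Ptf1a cells (circles, 3 samples merged) and in GFP-only cells (squares, 2 samples merged), grouped by the layer with which the gene is usually associated; the table gives no error for a group value. The circle lies below the square for 6 factors and above it for Tle4, Cux2 and Bcl11a.

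The precision of these values can be read from the authors' test alone. Dividing each deposited log2 fold by its test statistic gives an implied standard error, which lay between 0.24 and 0.57 on the log2 scale for the 9 factors. The 95% intervals built from this error read the statistic as normal, so their true coverage is not known. The deposited p-values were smaller than a normal reading of the same statistics would give. With a two-sided normal p, 4 of the factors (Bhlhe22, Tbr1, Cux1 and Bcl11b) had an unadjusted p under 0.05. After Benjamini-Hochberg adjustment over the tested genes, 2 of these (Bhlhe22 and Tbr1) remained, beside 2.80% of all tested genes that fell and 3.30% that rose by that reading. The calls of Cux1, Bcl11b, Fezf2, Bcl11a and Tle4 therefore rest on the authors' own p-values. Cux1 and Bcl11b had an adjusted normal p of 0.201 and 0.225. The implied 95% intervals of Fezf2, Bcl11a and Tle4 include 0. At a stricter q of 0.01 the calls of Fezf2, Bcl11a and Tle4 were lost. By that criterion 4 factors fell, beside 12.9% of tested genes that fell and 12.9% that rose. With a minimum change of 1.5-fold on the log2(FPKM + 0.1) scale Bhlhe22 and Tbr1 were the factors that kept a call, beside 7.70% of tested genes that fell and 13.0% that rose. Among genes of at least 5 FPKM in either group, 5 of the 6 remaining factors fell and Bcl11a rose, beside 30.3% of such genes that fell and 13.7% that rose.

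**Figure D2:**
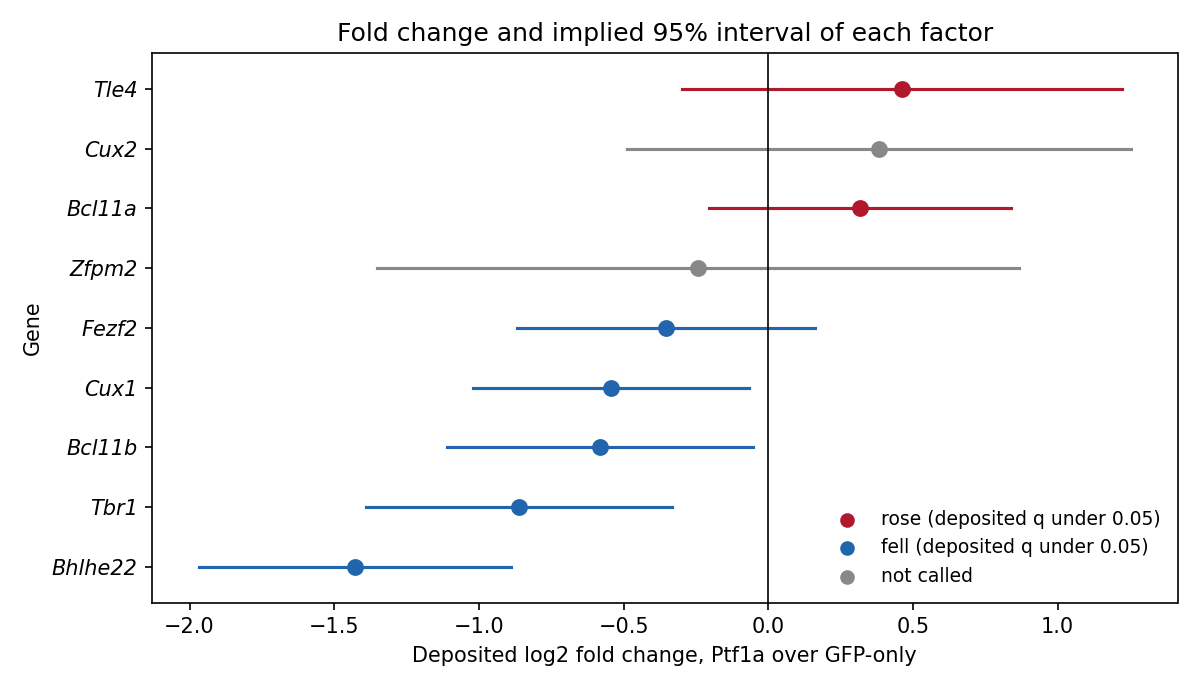
Deposited log2 fold change, Ptf1a over GFP-only, of each factor (points) with the 95% interval implied by the deposited test statistic (lines), coloured by the deposited call. The lines read that statistic as normal. The intervals of Bhlhe22, Tbr1, Bcl11b and Cux1 lie wholly below 0, and those of the other 5 factors cross it.

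Among the deep-layer factors, Tbr1 changed most. Tbr1, a T-box factor of early-born and corticothalamic neurons (chromosome 2, 61642510 to 61652170, mm9, 6 exons in its longest coding transcript), stood at 8.29 FPKM in Ptf1a cells and 15.1 FPKM in GFP-only cells. The Ptf1a level was 0.550 of the GFP-only level: the log2 fold in the authors' deposited table was -0.86, with an implied interval of -1.39 to -0.33 and q = 0.000329. That q was shared with every gene at the smallest p that the table holds, 5e-05, which 1803 tested genes had. Of the 1188 tested genes in the same decile of mean FPKM, 35 had a lower log2 difference than Tbr1.

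Fezf2, the zinc finger selector of subcerebral projection neurons (chromosome 14, 13174406 to 13178379, mm9, 4 exons), stood at 15.6 FPKM in Ptf1a cells and 20.0 FPKM in GFP-only cells. The authors' deposited table gave it a log2 fold of -0.35 (implied interval -0.87 to 0.16) and q = 0.0240. Bcl11b, also called Ctip2, is a zinc finger factor that acts downstream of Fezf2 in corticospinal neurons (chromosome 12, 109148613 to 109241624, mm9, 4 exons). It stood at 6.12 FPKM in Ptf1a cells and 9.15 FPKM in GFP-only cells, a log2 fold of -0.58 (implied interval -1.11 to -0.05) with q = 0.000329 in the authors' deposited table. Both members of the Fezf2 to Bcl11b axis thus had lower values in Ptf1a cells, and the level of Bcl11b relative to Fezf2 was 0.391 in Ptf1a cells and 0.458 in GFP-only cells. The level of Fezf2 relative to Tbr1 was 1.89 in Ptf1a cells and 1.32 in GFP-only cells. No test of these ratios can be made from single group values.

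The other deep-layer factors were weakly expressed, and of these Tle4 rose and Zfpm2 was not called. Tle4, a Groucho-type co-repressor of corticothalamic neurons (chromosome 19, 14522562 to 14672473, mm9, 20 exons), rose to 2.73 FPKM in Ptf1a cells, against 1.98 FPKM in GFP-only cells. Its log2 fold in the authors' deposited table was 0.46 (implied interval -0.30 to 1.22), with q = 0.0290. Tle4 and Tbr1, both genes of corticothalamic neurons, therefore had opposite calls in the deposited table; the level of Tbr1 relative to Tle4 was 3.04 in Ptf1a cells and 7.61 in GFP-only cells. Zfpm2, also called Fog2, is a zinc finger cofactor of GATA proteins and a marker of corticothalamic neurons (chromosome 15, 40486588 to 40936138, mm9, 8 exons). It stood at 0.607 FPKM in Ptf1a cells and 0.718 FPKM in GFP-only cells and was not called (q = 0.487 in the authors' deposited table). The implied interval of its log2 fold was -1.35 to 0.87.

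The upper-layer pair gave values on opposite sides. Cux1, a homeodomain factor with cut repeats (chromosome 5, 136724005 to 137043301, mm9, 24 exons in its longest coding transcript), fell to 41.0 FPKM in Ptf1a cells, against 59.7 FPKM in GFP-only cells. In the authors' deposited table its log2 fold was -0.54 (implied interval -1.02 to -0.07) and q = 0.000329. The Cux1 locus also encodes a Golgi protein through alternative exons, and the gene row merges all of its transcripts, so the value is not that of the homeodomain factor alone. A microRNA gene, Mir721, overlaps the same locus, and none of the other 8 factors overlapped another row. Cux2, on the same chromosome (122310225 to 122497834, mm9, 23 exons), stood at 1.39 FPKM in Ptf1a cells and 1.07 FPKM in GFP-only cells. It was not called (q = 0.147 in the authors' deposited table), with an implied interval of -0.49 to 1.25 around a log2 fold of 0.38. The ratio of Cux1 to Cux2 was 29.4 in Ptf1a cells and 55.9 in GFP-only cells.

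Of the factors that are not confined to a single set of layers, Bhlhe22 fell and Bcl11a rose. Bhlhe22, also called Bhlhb5, is a basic helix-loop-helix repressor of postmitotic projection neurons that helps to set cortical area identity (chromosome 3, 17954325 to 17957514, mm9, a single exon). It stood at 7.75 FPKM in Ptf1a cells and 20.9 FPKM in GFP-only cells, 2.69-fold lower with Ptf1a. Its log2 fold of -1.43 in the authors' deposited table (implied interval -1.97 to -0.89, q = 0.000329) was the largest of the 9. Of all tested genes 0.93% had a lower log2 difference, and 2 of the 1188 genes in its decile of mean FPKM did. Bhlhe22 ranked 5 of 9 by level in Ptf1a cells and 3 of 9 in GFP-only cells; in Ptf1a cells Fezf2 and Tbr1 stood above it. Prdm8, its partner in transcriptional repression (chosen after its value was seen), was not called and stood at 4.52 FPKM in Ptf1a cells and 4.31 FPKM in GFP-only cells.

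Bcl11a, also called Ctip1, is the close relative of Bcl11b and acts in both deep-layer and upper-layer neurons (chromosome 11, 23978056 to 24073558, mm9, 4 exons). It was the most abundant factor in both groups, at 113 FPKM in Ptf1a cells and 91.0 FPKM in GFP-only cells. The authors' deposited table gave a log2 fold of 0.32 (implied interval -0.20 to 0.84) with q = 0.0241. Genes of its abundance rarely rose: in the highest decile of mean FPKM 3.79% of 1188 genes rose and 58.2% fell, and 45 of them had a higher log2 difference than Bcl11a. The ratio of Bcl11a to Bcl11b was 18.5 in Ptf1a cells and 9.94 in GFP-only cells.

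The upstream sequences of this pair and of Tbr1 are shown because the relatives Bcl11a and Bcl11b had opposite calls and Tbr1 had the lowest fold of the factors with a listed promoter. They are the 250 bases before the start site from RefSeq on GRCm38.p6, which is not the build of the authors' table, and 7 of the 9 factors had an entry. Capitals mark 2 searched motifs, the E-box core CANCTG with its reverse complement CAGNTG, and the Rbpj core TGGGAA with its reverse complement TTCCCA; a base can belong to both. These are the core letters of the sites that Ptf1a binds with an E protein and with Rbpj. The stretches lie at chr2:61804203-61804452 on the plus strand (Tbr1), chr12:108003415-108003664 on the minus strand (Bcl11b) and chr11:24080445-24080694 on the plus strand (Bcl11a). The sequence downstream of each listed start site was also looked for in the gene's GENCODE M21 transcripts. It was found for Tbr1 and Bcl11b but not for Bcl11a or Tle4, so the start sites listed for Bcl11a and Tle4 are uncertain.
Tbr1: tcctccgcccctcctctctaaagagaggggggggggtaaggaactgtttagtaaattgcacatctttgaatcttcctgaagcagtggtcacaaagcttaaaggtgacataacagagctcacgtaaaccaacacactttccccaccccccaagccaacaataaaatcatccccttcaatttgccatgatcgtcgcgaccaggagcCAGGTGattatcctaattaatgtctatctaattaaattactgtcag
Bcl11b: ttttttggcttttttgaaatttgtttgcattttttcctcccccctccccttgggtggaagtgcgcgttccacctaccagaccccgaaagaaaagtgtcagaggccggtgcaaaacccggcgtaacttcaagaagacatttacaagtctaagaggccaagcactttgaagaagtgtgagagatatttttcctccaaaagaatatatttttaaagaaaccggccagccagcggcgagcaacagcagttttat
Bcl11a: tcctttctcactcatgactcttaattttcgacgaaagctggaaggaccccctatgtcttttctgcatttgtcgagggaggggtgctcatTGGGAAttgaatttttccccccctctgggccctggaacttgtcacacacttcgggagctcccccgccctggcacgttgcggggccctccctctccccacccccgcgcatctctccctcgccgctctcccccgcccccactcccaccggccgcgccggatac
Tbr1 held the E-box letters CAGGTG, whose first base is 46 bases before the start site, and Bcl11a held TGGGAA from 161 bases before it. Neither motif was found in the Bcl11b stretch, nor in those of Fezf2, Cux1 and Tle4. Cux2, with 2 listed start sites, held E-box letters before both. In all, 3 of the 9 listed promoters of these factors held the E-box core and 1 held the Rbpj core, beside 44.8% of all 32851 promoters of the same length with the E-box core and 21.6% with the Rbpj core. Among promoters of genes that rose, fell and were not called, 37.8%, 38.6% and 37.6% held the E-box core. A match to these letters describes the sequence and is not evidence of binding.

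The order of the levels was otherwise stable. In Ptf1a cells it ran from Bcl11a through Cux1, Fezf2, Tbr1, Bhlhe22, Bcl11b, Tle4 and Cux2 to Zfpm2. In GFP-only cells Bhlhe22 stood between Cux1 and Fezf2, with the other 8 in the same order. Bhlhe22 and Fezf2 were close in GFP-only cells (20.9 and 20.0 FPKM), as were Tbr1 and Bhlhe22 in Ptf1a cells (8.29 and 7.75 FPKM). Whether such neighbours differ beyond the spread between samples cannot be said from merged values. The summed level of the 9 factors was 197 FPKM in Ptf1a cells and 219.5 FPKM in GFP-only cells, and Bcl11a and Cux1 held most of it in both.

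Abundance moved with the calls in these data, and the factors span a wide range of it. Among the 9809 tested genes whose mean FPKM lay within the range of the 9 factors, 15.7% fell and 19.1% rose. In the decile that holds Tbr1 and Bhlhe22 (mean of 8.39 to 15.6 FPKM), 18.9% fell and the median log2 difference was -0.06. In the deciles of Bcl11b, Fezf2 and Cux1, the shares that fell were 15.2%, 23.7% and 32.7%. With the median of each gene's own decile subtracted, the log2 difference was -1.36 for Bhlhe22, -0.80 for Tbr1, -0.58 for Bcl11b, -0.39 for Cux1 and -0.26 for Fezf2. The same subtraction gave 0.64 for Bcl11a, 0.31 for Tle4, 0.15 for Cux2 and -0.68 for Zfpm2. No factor changed the side of 0 on which it lay.

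**Figure D3:**
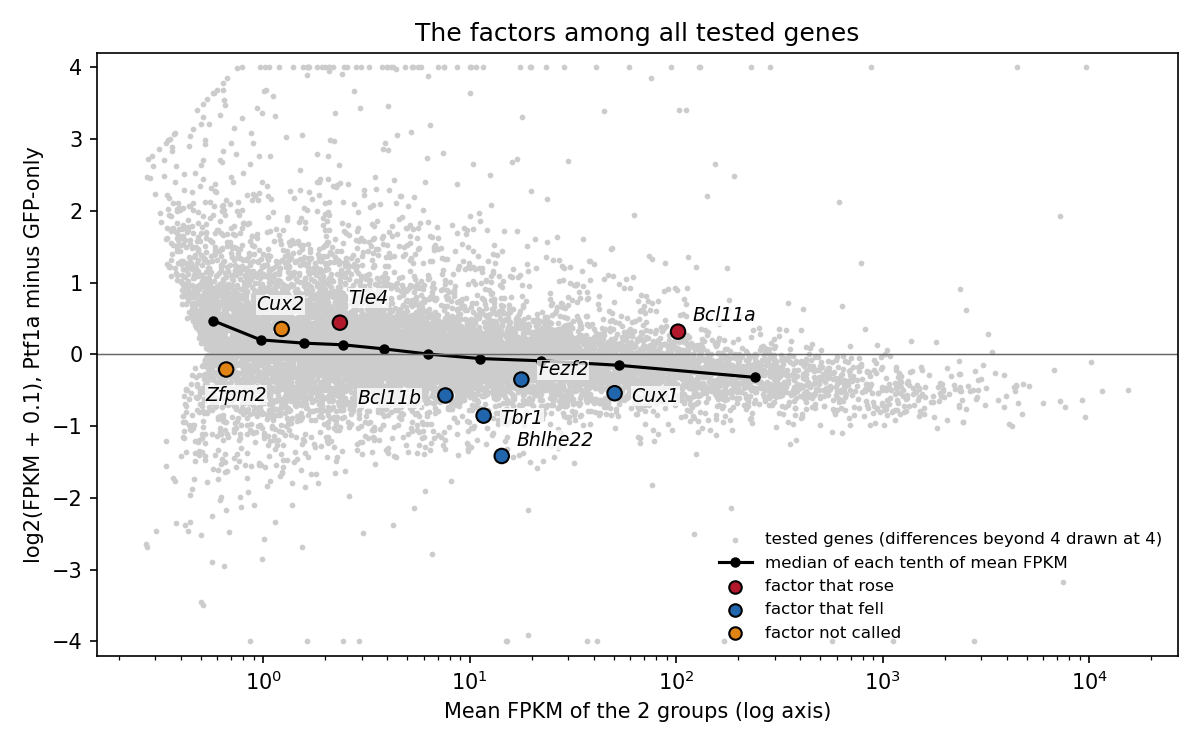
Difference in log2(FPKM + 0.1), Ptf1a minus GFP-only, against the mean FPKM of both groups (log axis) for tested genes (grey), with the median of each decile of mean FPKM (black line) and the 9 factors (coloured by call). The line descends from 0.47 in the lowest decile to -0.32 in the highest, Bcl11a lies above it, and Bhlhe22 and Tbr1 lie farthest below it among the called factors.

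Other genes of the same neuronal classes changed in both directions. The shares over all tested genes, to set beside each list that follows, were 18.7% risen and 19.1% fallen. In a list of 28 further deep-layer genes, 7 rose, 6 fell and 10 were not called, with a median log2 difference of 0.06 over the 23 tested. Those that changed most were Crym, a thyroid hormone-binding protein (82.0 FPKM in Ptf1a cells and 7.69 FPKM in GFP-only cells), the synaptotagmin Syt6 (1.30 FPKM in Ptf1a cells and 0.221 FPKM in GFP-only cells), Otx1, a homeodomain factor of layer V neurons (4.11 FPKM in Ptf1a cells and 1.87 FPKM in GFP-only cells), and Nfia (21.8 FPKM in Ptf1a cells and 10.3 FPKM in GFP-only cells), which rose. Lmo3, a LIM-only factor, fell to 14.4 FPKM in Ptf1a cells, against 34.9 FPKM in GFP-only cells. Sox5, a SOX factor that controls the timing of corticofugal neuron subtypes, was not called (28.6 FPKM in Ptf1a cells and 24.9 FPKM in GFP-only cells), nor were Etv1 and Ppp1r1b.

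In a list of 25 further upper-layer and callosal genes, 5 rose, 9 fell and 11 were not called, with a median log2 difference of -0.11. The small heat shock gene Hspb3 (1.30 FPKM in Ptf1a cells and 7.17 FPKM in GFP-only cells), the semaphorin receptor gene Plxnd1 (0.515 FPKM in Ptf1a cells and 1.89 FPKM in GFP-only cells), the ligand gene Kitl (7.99 FPKM in Ptf1a cells and 17.6 FPKM in GFP-only cells) and the copine gene Cpne4 (1.16 FPKM in Ptf1a cells and 2.27 FPKM in GFP-only cells) fell. Dkk3, a secreted protein of the dickkopf family, rose to 7.75 FPKM in Ptf1a cells, against 2.58 FPKM in GFP-only cells. Lmo4, Marcks and Limch1 were not called.

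Regulators and partners of the layer factors were also divided, with 6 risen, 9 fallen and 8 not called of 23 tested. The risen included the progenitor factors Pax6 (21.5 FPKM in Ptf1a cells and 3.73 FPKM in GFP-only cells), Emx2 (3.13 FPKM in Ptf1a cells and 0.511 FPKM in GFP-only cells) and Neurog2 (13.3 FPKM in Ptf1a cells and 4.04 FPKM in GFP-only cells), and the E protein Tcf4 (90.8 FPKM in Ptf1a cells and 59.2 FPKM in GFP-only cells). Nr2f2, an orphan nuclear receptor, fell to 10.5 FPKM in Ptf1a cells, against 18.6 FPKM in GFP-only cells. Sox11, an activator of Fezf2 in mouse cortex, was not called and stood at 181 FPKM in Ptf1a cells and 171 FPKM in GFP-only cells. Sox4, a SOX factor of the same list (chosen after its value was seen), fell to 49.5 FPKM in Ptf1a cells, against 71.0 FPKM in GFP-only cells. Hdac1 and Auts2 were not called. Genes that studies of mouse cortex place under these factors had 6 risen, 1 fallen and 9 not called of 16 tested. Over all tested genes 18.7% rose and 19.1% fell. By the adjusted normal p 1 of these reported targets rose and 0 fell, and with the 1.5-fold minimum 3 rose and 0 fell. Dcc, a netrin receptor, stood at 2.72 FPKM in Ptf1a cells and 1.02 FPKM in GFP-only cells. Reln, which Tbr1 is known to control, rose to 0.678 FPKM in Ptf1a cells, against 0.244 FPKM in GFP-only cells. Gad1, the GABA-synthesising enzyme, which Fezf2 is known to control, rose to 1.16 FPKM in Ptf1a cells, against 0.522 FPKM in GFP-only cells. Reln is also in the Cajal-Retzius list below, and Gad1 in the interneuron list. Whether Reln or Gad1 changed through these factors was not tested. Nrp1 rose, Efnb3 fell, and L1cam was not called.

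**Figure D4:**
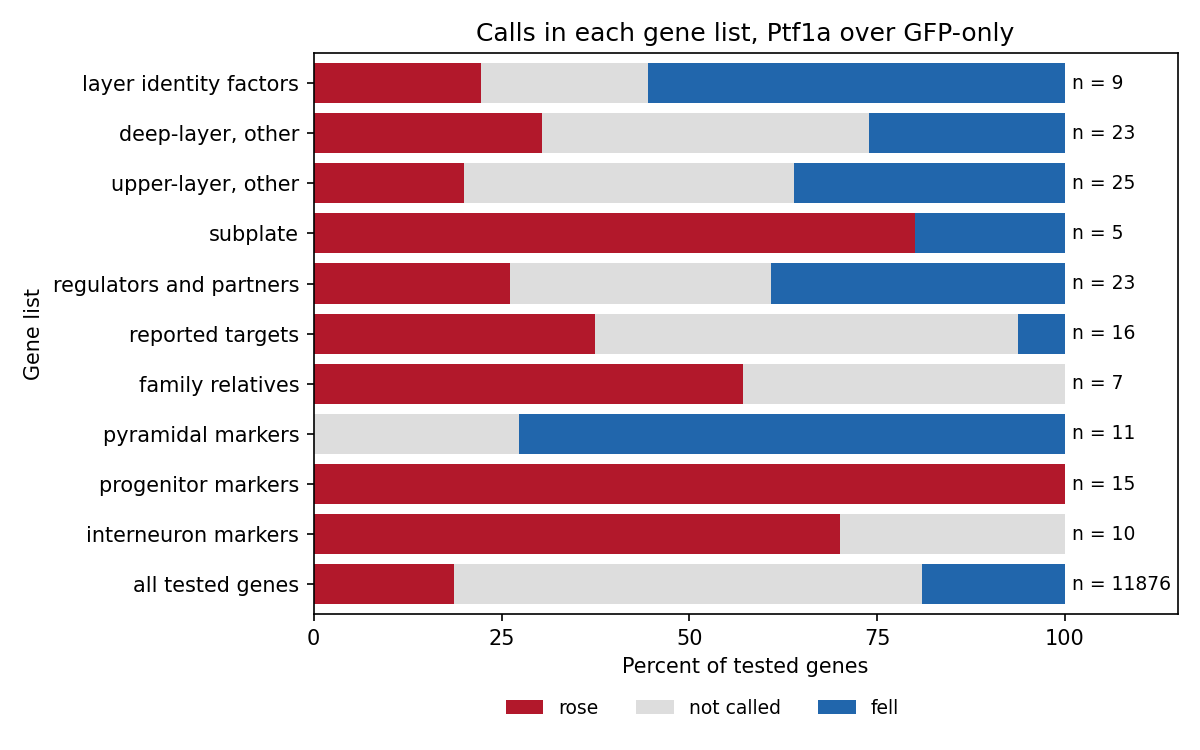
Percent of tested genes that rose (red), were not called (grey) and fell (blue) in each gene list, with the number tested at the right. The 9 layer factors had 5 fallen and 2 risen, all 15 progenitor markers rose, and 8 of 11 pyramidal markers fell. By the adjusted normal p of the test statistic, 2 layer factors fell and 0 rose, 14 progenitor markers rose and 0 pyramidal markers fell.

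Markers of the cell classes in the sort moved beside these results. The labels call the cells cortical pyramidal cells, and Neurod6, a pyramidal neuron factor, stood at 1190 FPKM in Ptf1a cells and 1717 FPKM in GFP-only cells. Of 11 tested pyramidal markers 8 fell and 3 were not called, and their median log2 difference was -0.49. By the adjusted normal p 0 of them fell, and with the 1.5-fold minimum 1 did. Of all tested genes 19.1% fell. In the highest decile of mean FPKM, which holds Neurod6, 58.2% fell. In the next decile, which holds Neurod1, Neurod2 and Mef2c, 32.7% fell. The summed level of the pyramidal markers, without Tubb3, which the table marks as having too much data, was 1375 FPKM in Ptf1a cells and 1964 FPKM in GFP-only cells. Mef2c, Rbfox3, Neurod1 and Nrn1 fell, whereas Emx1, Slc17a6 and Slc17a7 were not called; the lists share genes, among them Mef2c with the upper-layer list and Neurod1, Neurod2, Neurod6 and Emx1 with the regulators. All 15 progenitor markers rose, with a median of 1.45 and a summed level of 3626 FPKM in Ptf1a cells and 1855 FPKM in GFP-only cells, of which Fabp7 (chosen after its value was seen) made up most. Nes stood at 5.15 FPKM in Ptf1a cells and 1.03 FPKM in GFP-only cells, and Ccnd2 at 99.2 FPKM in Ptf1a cells and 25.7 FPKM in GFP-only cells. Mki67, a proliferation marker, stood at 2.04 FPKM in Ptf1a cells and 0.625 FPKM in GFP-only cells. Of 10 tested interneuron markers 7 rose and 3 were not called, beside 18.7% of all tested genes that rose. By the adjusted normal p 2 of them rose. Weak genes rose more often, with 30.8% risen in the lowest decile of mean FPKM. The interneuron list summed to 196 FPKM in Ptf1a cells and 152 FPKM in GFP-only cells, most of it Npy and Sst. Sst (chosen after its value was seen) rose to 78.6 FPKM in Ptf1a cells, against 41.3 FPKM in GFP-only cells. Gad2, Sp8 and Lhx6 were among those that rose, while Npy, Nxph1 and Dlx1 were the uncalled ones. Dlx6 (chosen after its value was seen) had no test and stood at 0.149 FPKM in Ptf1a cells and 0 FPKM in GFP-only cells. The part that any of these markers play in the levels of the 9 layer factors was not tested.

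Genes of other cell types were measured to show what else the sort could hold. Red blood cell genes summed to 62.1 FPKM in Ptf1a cells and 149 FPKM in GFP-only cells, and Hbb-y, Hbb-b2 and Hba-x fell, with no call for Alas2 or Hba-a2. Microglial genes summed to 9.24 FPKM in Ptf1a cells and 14.6 FPKM in GFP-only cells, where Tyrobp fell and C1qa, C1qb and Aif1 were not called. Mural and meningeal genes summed to 5.92 FPKM in Ptf1a cells and 5.88 FPKM in GFP-only cells, with Pdgfrb and Rgs5 risen, Kcnj8 and Dcn fallen and Lum not called. Endothelial genes summed to 4.48 FPKM in Ptf1a cells and 3.26 FPKM in GFP-only cells, with Cldn5 not called. Oligodendrocyte precursor genes summed to 0.738 FPKM in Ptf1a cells and 0.393 FPKM in GFP-only cells and none was tested. Of 4 tested Cajal-Retzius genes 4 rose, beside 18.7% of all tested genes, and 2 rose by the adjusted normal p. The list summed to 149 FPKM in Ptf1a cells and 11.7 FPKM in GFP-only cells. Calb2 made up most of the Cajal-Retzius sum (141 FPKM in Ptf1a cells and 9.65 FPKM in GFP-only cells), and Ebf3, Nhlh2 and Reln rose too. The other 4 genes of that list with a row had no test: Lhx5 stood at 0.582 FPKM in Ptf1a cells and 0.236 FPKM in GFP-only cells, Trp73 at 0.136 FPKM in Ptf1a cells and 0.0218 FPKM in GFP-only cells, Lhx1 at 0.127 FPKM in Ptf1a cells and 0.0814 FPKM in GFP-only cells, and Ebf2 at 0.160 FPKM in Ptf1a cells and 0.165 FPKM in GFP-only cells.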

How the data were processed

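RNA of GFP-sorted cortical cells from 3 Ptf1a and 2 GFP-only samples was amplified from 2.1 to 7.8 ng and read from both ends at 50 bp, per the labels' protocols. Per the submitters' processing notes, the tools were Cuffdiff, Cufflinks 2.1.1, TopHat2 2.0.8 and CASAVA 1.8.2, with build mm9; annotation and settings are not given in the sources used here. Per the file headers, the authors deposited 1 FPKM value per group and gene, a log2 fold change (headed PIG over GFP, read as Ptf1a over control), a signed test score, and a p-value and q-value. Of 23234 rows, 11876 carried a test. Depth per sample is unknown.

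Calls used the deposited q, under 0.05. Computed here with pandas 2.3.3 and SciPy 1.17.1 were log2(FPKM + 0.1) differences, which understate the change of weak genes, implied standard errors, deciles of mean FPKM and a normal p. The calls by the normal p were tried on simulated normal scores. Such scores cannot show whether the deposited test statistic is itself normal. Locus starts were taken to count from 0: so read, 7148 of 20595 loci spanned exactly the RefSeq gene, against 451 otherwise. Exon numbers come from GENCODE M21. Named are the 9 factors, Ptf1a and, per list, up to 5 called genes with the largest log2 difference and up to 3 uncalled genes with the highest mean FPKM. Some genes that this rule names are not reported here. Members and lists were chosen with earlier results of these data known. The labels do not say that samples came from separate litters, so the spread between these samples may be partly technical. How far the deposited p-values measure that spread is not known, because the settings of the test are not given.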

Additional observations from a re-analysis of the deposited data

How the results depend on the processing

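The fallen factors numbered 5 at the deposited q under 0.05 and were 2 with the normal p of the test statistic and 2 with a fold minimum of 1.5. The risen factors numbered 2, and were 0 at a q under 0.01, 0 with the normal p, 0 with the fold minimum and 1 among genes of at least 5 FPKM, where Tle4 is no longer tested. With the normal p, 0 risen and 4 fallen factors had an unadjusted p under 0.05; by the deposited p, 7 factors did. Over all context lists, genes risen (55) were 27 with the normal p and 35 at 5 FPKM or more, and genes fallen (35) were 10 with the normal p and 21 with the fold minimum. The share of tested genes at the abundance of the factors was 17.4% risen and 21.0% fallen when averaged over the deciles that hold them, in place of 19.1% and 15.7%. Of 45 recomputed log2 differences of the factors, 44 moved by less than the implied standard error and 1 (Bcl11a, centred within its decile) by more; 0 changed sign. Of 168 recomputed counts of single lists, 131 stayed within 1.5 times, a number that includes counts of 0 that stayed at 0. Where a count moved, the cause was not tested, apart from the smaller number of genes tested at 5 FPKM. No paired analysis was possible because the table holds 1 merged value per group; for the same reason samples could not be left out in turn.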

Other observations

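Subplate genes, which mark the earliest-born cortical neurons, had 4 risen and 1 fallen of 5 tested, and 7 of the 12 listed had no test. Over all tested genes 18.7% rose and 19.1% fell. By the adjusted normal p 2 subplate genes rose and 1 fell. The zinc finger gene St18 stood at 10.00 FPKM in Ptf1a cells and 0.467 FPKM in GFP-only cells, Nxph4 at 5.50 FPKM in Ptf1a cells and 0.416 FPKM in GFP-only cells, and Lpar1, a lysophosphatidic acid receptor, at 3.34 FPKM in Ptf1a cells and 1.41 FPKM in GFP-only cells. Tmem163 rose as well. Nr4a2, the nuclear receptor also called Nurr1, fell to 4.31 FPKM in Ptf1a cells, against 10.9 FPKM in GFP-only cells.

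Family relatives of the layer factors gave 4 risen and 3 uncalled of 7 tested, and 7 of the 14 listed had no test. Over all tested genes 18.7% rose. By the adjusted normal p 0 of the relatives rose. Eomes, the T-box relative of Tbr1 in intermediate progenitors, rose to 7.95 FPKM in Ptf1a cells, against 4.02 FPKM in GFP-only cells. Tle6 stood at 1.86 FPKM in Ptf1a cells and 0.888 FPKM in GFP-only cells, Tle2 at 1.37 FPKM in Ptf1a cells and 0.782 FPKM in GFP-only cells, and Satb1 rose too. Aes, Tle1 and Tle3 were not called.

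Of the 18 rows next to the 9 factors on the chromosome, 10 were tested, of which 4 fell, 2 rose and 4 were not called. Over all tested genes 19.1% fell and 18.7% rose. In the highest decile of mean FPKM, which holds the neighbour Psmd14, 58.2% fell. Psmd14, 4.08 kb from Tbr1, fell to 327 FPKM in Ptf1a cells, against 418 FPKM in GFP-only cells. Sh2b2, 3.23 kb from Cux1, fell to 5.64 FPKM in Ptf1a cells, against 7.49 FPKM in GFP-only cells. Setd3, 103 kb from Bcl11b, fell to 14.8 FPKM in Ptf1a cells, against 18.9 FPKM in GFP-only cells. Beside Fezf2, the unnamed gene 3830406C13Rik fell to 12.2 FPKM in Ptf1a cells, against 20.9 FPKM in GFP-only cells, and Cadps on the other side rose to 4.37 FPKM in Ptf1a cells, against 2.79 FPKM in GFP-only cells. Psat1, the row after Tle4 but 1307 kb from it, rose to 51.8 FPKM in Ptf1a cells, against 31.7 FPKM in GFP-only cells. The rows not called were Cyp7b1 beside Bhlhe22, Papolg 183 kb from Bcl11a, Fam109a beside Cux2 and Oxr1 343 kb from Zfpm2.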
